A study of Mus musculus with 58 samples.

Results

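Wild-type (WT) mouse CD4+ T cells that had spent 24 h on plates coated with the lowest anti-CD3 dose of the study were compared with WT naive CD4+ T cells across all genes. The members are libraries, picked by their labels, with earlier results of these data known. They are 4 stimulated libraries (replicates 1 to 4) and 3 naive libraries (replicates 1, 2 and 4), 7 of the 58 libraries of the series. Of 13709 genes tested, 4943 rose and 5515 fell after this stimulus.

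The series holds poly(A) RNA-seq of naive and stimulated CD4+ T cells from 3 genotypes. Its title and design concern miR-17~92, a cluster of microRNAs, in the response to costimulation. Naive CD4+ T cells came from spleens and lymph nodes pooled from 10 mice, male and female. The WT very weak 24 h group was cultured for 24 h on anti-CD3 at 0.25 µg/ml and anti-CD28 at 0.2 µg/ml, with IL-2 at 50 U/ml, and the WT naive group was collected without culture. WT cells were also stimulated for 24 h with anti-CD3 at 0.5 µg/ml (weak) or for 48 h at 0.25 µg/ml (4 libraries each). KO cells carry CD4cre and floxed miR-17~92 alleles, with 4 libraries after 24 h of the very weak stimulus and 3 naive ones. TG cells carry CD4cre and a miR-17~92 transgene behind a lox-STOP-lox cassette in Rosa26, with 4 libraries in each of these states. In both models the Cre acts in cells that express or have expressed Cd4, so the allele is changed in T cells and not in the whole mouse.

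A naive T cell circulates in a resting state that has to be maintained. Transcription factors such as KLF2 and FOXO1 keep its homing receptors on and its growth low, and IL-7 supplies survival signals. When the antigen receptor and CD28 are engaged together, kinases next to the receptor activate the NFAT, NF-kB and AP-1 transcription factors, MYC and mTORC1. The cell then enlarges, builds ribosomes, turns to aerobic glycolysis, replicates its DNA and divides. Anti-CD3 antibody stands in for antigen by cross-linking the receptor, and anti-CD28 for the costimulatory ligand.

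Counts per gene were tested with the quasi-likelihood F test of edgeR in 1 fit of all 58 libraries, with genes called where the p adjusted by Benjamini and Hochberg was below 0.05. Levels are counts-per-million (CPM), that is, a share of a library and not an amount per cell. Values are given for stimulated libraries 1, 2, 3 and 4 and for naive libraries 1, 2 and 4, in that order. A value after ± is the SD over libraries for CPM and the standard error for a log2 fold change, which is always stimulated over naive. Totals ran from 19.4 to 19.7 M counts per stimulated library and from 20.4 to 20.8 M per naive library. Genes were grouped into lists by role, with earlier results of these data known. Counts of calls in a list stand beside 36.1% higher and 40.2% lower over all genes tested. Members named only to account for a small count of calls were picked out after their values were seen. The labels do not say that replicates came from separate pools of mice, so the spread between replicates may be technical. In the fit of all 58 libraries, p-values and standard errors rest on the spread within every group, not in the compared groups alone. A gene can therefore be left uncalled although its compared libraries did not overlap. Naive cells were not cultured, so effects of anti-CD3 cannot be told apart from those of anti-CD28, IL-2, plating and 24 h of time.

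The change reached most of the measured transcriptome. The calls made up 76.3% of the genes tested, with 36.1% higher and 40.2% lower in stimulated cells. Genes called with at least a 2-fold difference numbered 2990 higher (21.8%) and 3594 lower (26.2%). At least an 8-fold difference was found for 614 genes that rose and 977 that fell, and at least a 32-fold difference for 145 and 310. The median log2 fold change was -0.08 over all genes, 1.23 over genes that rose and -1.40 over genes that fell. Of the 13709 genes tested, stimulated and naive libraries did not overlap for 5004 on the high side and 5585 on the low side. Most genes thus did not overlap, and a lack of overlap does not set a named gene apart. The genes that rose held 57.5% to 60.5% of all counts in stimulated libraries, against 25.6% to 26.01% in naive libraries. The genes that fell held 22.9% to 25.5% of counts in stimulated libraries, against 56.7% to 57.8% in naive libraries. The remaining 3251 genes were not called. Few genes went on or off outright. Only 3 genes had at most 3 counts over all naive libraries and at least 5 CPM after stimulation (Bdh2, Etv4 and Lancl3), and 18 genes showed the opposite pattern, of 10187 genes that reached 5 CPM in either group.

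**Figure D1:**
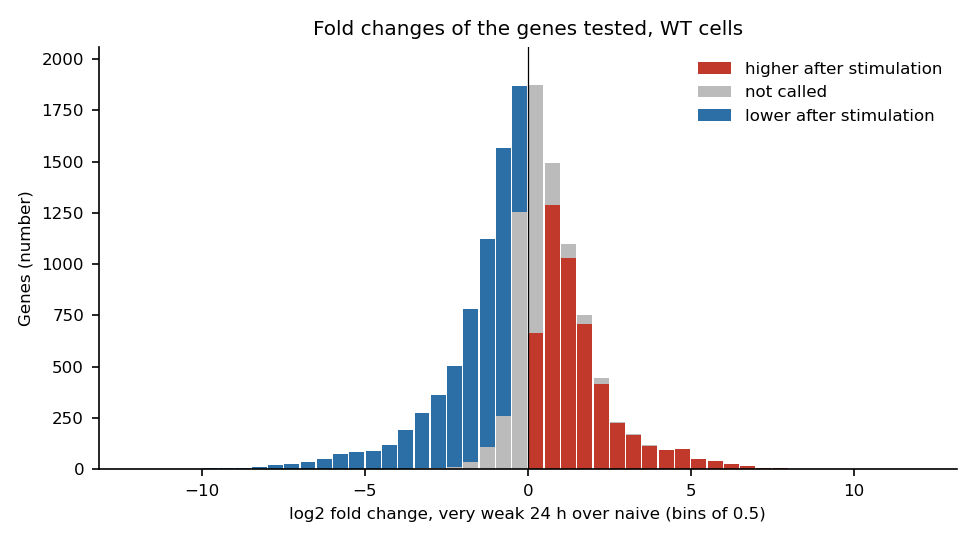
Histogram of log2 fold changes, stimulated over naive, for 13709 genes (x axis, log2 units; y axis, number of genes), split into genes called higher, called lower and not called. Calls lie on both sides of 0, with 4943 to the right and 5515 to the left.

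Markers of other cell types and of freshly handled cells were higher in naive libraries, and these values stand beside every fall described below. The CD4+ T cell label held in both groups: Cd3e, Cd3d, Cd3g, Cd4, Cd28, Cd5 and Lck were all measured, and their summed level was 3315 to 3664 CPM in the stimulated libraries, against 4721 to 5358 CPM in the naive libraries. Of the 14 B cell markers measured (16 listed), 14 fell and none rose, with a median log2 fold change of -3.14. The summed level of B cell markers was 87.5 to 194 CPM in the stimulated libraries, against 831 to 1573 CPM in the naive libraries, and naive library 4 was the highest. Of the 21 myeloid markers measured (22 listed), 20 fell and none rose, with a median log2 fold change of -5.91. Their sum was 27.1 to 36.4 CPM in the stimulated libraries, against 252 to 553 CPM in the naive libraries, and C1qa, C1qb, Clec4f, Fcna and Xcr1 had no count in any stimulated library. Platelet markers fell in 5 of 6 and erythroid markers in 6 of 6. Their sums were 12.7 to 23.5 CPM in the stimulated libraries, against 220.5 to 259 CPM in the naive libraries for platelets, with Gp9 and Treml1 at 0 counts after stimulation, and 1.63 to 11.1 CPM in the stimulated libraries, against 173 to 558 CPM in the naive libraries for erythroid cells. Stromal and endothelial markers summed to 28.8 to 44.3 CPM in the stimulated libraries, against 279.8 to 296 CPM in the naive libraries, with 8 of 9 lower and Pdgfra and Ccl19 at 0 counts in stimulated libraries. Markers of memory or effector T cells fell in 8 of 12 and summed to 29.8 to 39.3 CPM in the stimulated libraries, against 189 to 210.3 CPM in the naive libraries. NK cell markers fell in 11 of 13, while Gzmb and Il2rb, which activated T cells also express, rose. CD8 T cell markers fell in 5 of 8 and innate-like T cell markers in 5 of 6. In bulk libraries, fewer cells of a type and less RNA of that type per cell cannot be told apart. The part of such cells in the falls reported below was not tested.

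Genes that respond to tissue dissociation and heat shock fell as well. Of the 18 dissociation and heat shock genes, 14 fell and 3 rose, with a median log2 fold change of -3.13. The sum of this list was 4154 to 5830.2 CPM in the stimulated libraries, against 7565 to 18166 CPM in the naive libraries, and naive library 1 was the highest by far. Fos, a subunit of the AP-1 transcription factor picked out after its values were seen, had 17.9, 25.6, 7.14 and 8.86 CPM in the stimulated libraries, against 2264, 794 and 619 CPM in the naive libraries. Hspa1b, an inducible cytosolic chaperone, had 1.27, 1.47, 0.604 and 1.68 CPM in the stimulated libraries, against 3507, 449 and 617 CPM in the naive libraries. Both genes fell, with log2 fold changes of -6.36 and -10.24, and for both naive library 1 stood well above naive libraries 2 and 4. Without naive library 1 the fall of Hspa1a, its near-identical neighbour, was -8.57 rather than -10.14.

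**Figure D2:**
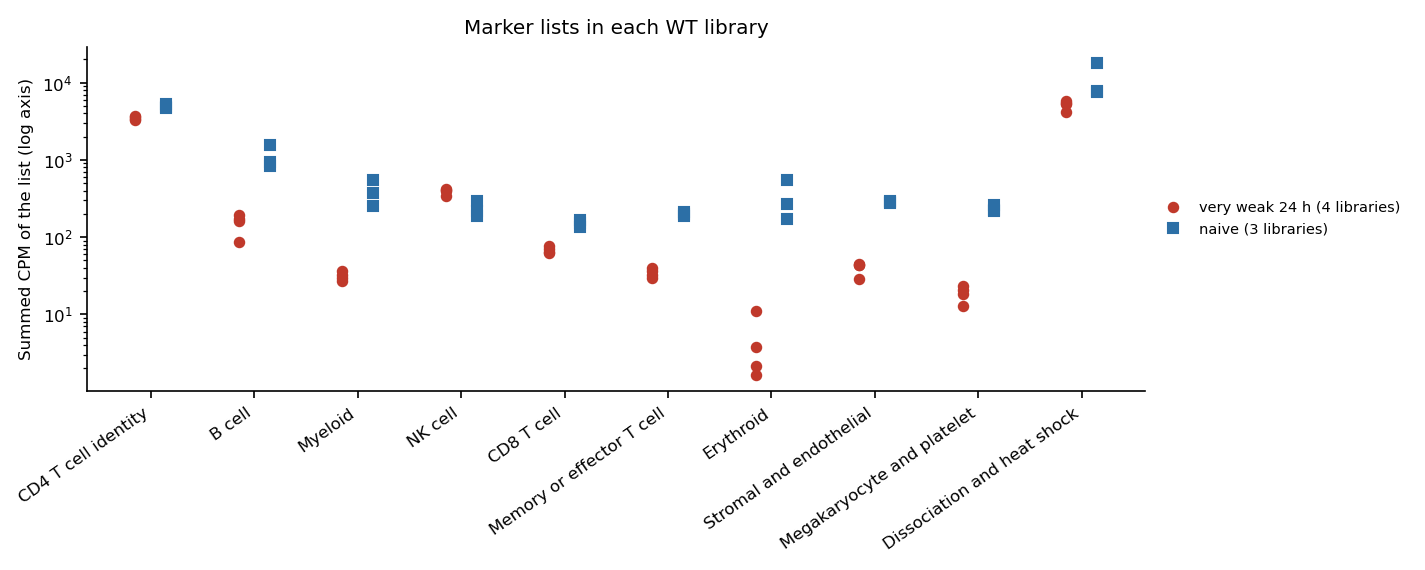
Summed CPM (log axis) of marker lists for other cell types and for dissociation and heat shock genes in each of the 4 stimulated (circles, left) and 3 naive (squares, right) libraries. Sums for B cells, myeloid cells, erythroid cells, platelets and stroma are lower in every stimulated library than in any naive one. NK cell sums are higher and include Gzmb and Il2rb, which rose, while 11 of the 13 NK cell markers fell.

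The largest rises were in genes at or near silence in naive cells. Bdh2, a dehydrogenase of ketone body and siderophore metabolism, had 11.7, 13.99, 19.8 and 11.9 CPM in the stimulated libraries, against 0.0510, 0 and 0 CPM in the naive libraries. Its naive total was 1 count, and the ratio of the group means was 883, with a 95% counting interval of 158 to 34899. Etv4, an ETS-family transcription factor, had 10.4, 9.94, 12.5 and 10.2 CPM in the stimulated libraries, against 0.0510, 0 and 0.0947 CPM in the naive libraries, a ratio of 220 with an interval of 74.99 to 1069. Stimulated library 3 was the highest for both. Ak4, a mitochondrial adenylate kinase, had 39.9, 53.1, 25.7 and 37.2 CPM in the stimulated libraries, against 0.0510, 0.436 and 0.237 CPM in the naive libraries (log2 fold change 7.28 ± 0.48, adjusted p = 6.7e-19). Bcat1, the cytosolic aminotransferase that starts the breakdown of leucine and its relatives, had 289, 221, 225 and 215 CPM in the stimulated libraries, against 1.22, 1.84 and 1.71 CPM in the naive libraries (log2 fold change 7.21 ± 0.21, adjusted p = 1.0e-32). No naive library came near a stimulated one for either enzyme. Dnph1 (a nucleotide hydrolase), Lrr1 and Hrob (both of DNA replication and repair), Akr1c18 (a steroid dehydrogenase), Crabp2 (a retinoic acid carrier) and Lancl3 rose by log2 6.58 to 6.95. Lancl3 had 3 naive counts, and its ratio was 139 with a 95% interval of 47.4 to 678. Among genes with no naive count at all, Cnih3 was at least 76.4-fold higher, and Frrs1l, Ccl1, H2ac4 and Zfp750 at least 27.8 to 32.7-fold, taking 3 counts in the naive group as the floor.

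The largest falls were in macrophage, stromal and heat-shock genes, several of them on the marker lists. C1qb, a subunit of the complement component C1q made by macrophages, had 0, 0, 0 and 0 CPM in the stimulated libraries, against 6.17, 17.5 and 31.7 CPM in the naive libraries, and was at least 489-fold lower, taking 3 counts in the stimulated group as the floor. C1qa (at least 455-fold), Fcna (379), Hpgd (152), Treml4 (146) and Col14a1 (133) were also at 0 counts after stimulation. For all 6, naive library 4 was the highest and naive library 1 the lowest, as for the summed myeloid markers. Mrc1, the macrophage mannose receptor, kept 1 count, a ratio of 1137 with a 95% interval of 204 to 44959. Hspa1l, Hspa1b and Hspa1a complete the 10 largest falls. Their sequences are alike enough that reads can be split between them, so their values are uncertain one by one.

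The genes that hold a naive T cell at rest were switched down together. Of the 22 quiescence genes, 17 fell and 3 rose, with a median log2 fold change of -2.38, beside -0.08 over all genes. Klf2, the transcription factor that keeps homing receptors expressed, had 15.8, 18.1, 26.7 and 20.3 CPM in the stimulated libraries, against 895, 518 and 612 CPM in the naive libraries. The highest stimulated library was far below the lowest naive one (log2 fold change -5.06 ± 0.38, adjusted p = 1.2e-16). Its fellow factor Foxo1 had 91.6, 113, 109 and 93.5 CPM in the stimulated libraries, against 510.4, 469.7 and 464 CPM in the naive libraries (log2 fold change -2.24 ± 0.14, adjusted p = 2.0e-19). Btg1, an anti-proliferative cofactor of mRNA deadenylation, had 276, 306, 329 and 312 CPM in the stimulated libraries, against 1851, 1822 and 1748 CPM in the naive libraries (log2 fold change -2.56 ± 0.16, adjusted p = 1.0e-19). The groups did not overlap for either gene, and stimulated libraries lay close together. Txnip, an inhibitor of thioredoxin and of glucose uptake, had 153, 144, 193 and 168 CPM in the stimulated libraries, against 1858, 1394 and 1251 CPM in the naive libraries (log2 fold change -3.19 ± 0.21, adjusted p = 1.3e-18). Pik3ip1, a membrane inhibitor of PI3 kinase, had 3.97, 7.4, 11.2 and 7.23 CPM in the stimulated libraries, against 165, 182 and 198 CPM in the naive libraries (log2 fold change -4.61 ± 0.36, adjusted p = 3.8e-16). Tob1, which restrains T cell proliferation, fell to 8.8 ± 0.374 CPM after stimulation, against 70.6 ± 27.2 CPM in naive cells (log2 fold change -3.0 ± 0.22, adjusted p = 6.4e-17). The 3 members that rose were Slfn2, Bach2 and Fnip1, and Foxp1 and Nfatc2ip were not called. Bach2, a repressor of effector genes, had 394, 443, 393 and 442 CPM in the stimulated libraries, against 223, 244 and 218 CPM in the naive libraries (log2 fold change 0.87 ± 0.21, adjusted p = 2.1e-04), with every stimulated library above the naive ones.

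Most homing and naive-state genes followed. Of the 22 naive-state and homing genes, 20 fell and none rose, with a median log2 fold change of -2.29. S1pr1, the receptor through which T cells leave lymph nodes, had 7.99, 18.05, 21.8 and 16.6 CPM in the stimulated libraries, against 787, 846 and 832 CPM in the naive libraries (log2 fold change -5.67 ± 0.47, adjusted p = 2.7e-15). Il7r, the IL-7 receptor chain, had 9.41, 22.96, 23.2 and 16.4 CPM in the stimulated libraries, against 623, 669.95 and 562 CPM in the naive libraries (log2 fold change -5.1 ± 0.56, adjusted p = 1.9e-11). Stimulated library 1 was the lowest for both, and no stimulated library approached a naive one. The transcription factor Tcf7 had 239, 316, 346 and 303 CPM in the stimulated libraries, against 2103, 2182 and 1996 CPM in the naive libraries (log2 fold change -2.8 ± 0.17, adjusted p = 2.9e-20), and its partner Lef1 fell by less (log2 fold change -1.86 ± 0.14, adjusted p = 2.4e-16). Both had their 4 stimulated libraries below their 3 naive ones. Ccr7, the chemokine receptor for the T cell zone, had 647, 699.8, 715 and 604 CPM in the stimulated libraries, against 742, 661 and 705 CPM in the naive libraries. Its libraries overlapped and it was not called (log2 fold change -0.08, adjusted p = 0.82). Id3, an inhibitor of E proteins, was the other member not called. The B cell, myeloid and stromal markers fell beside these genes, and B cells also express Ccr7, Cd27 and Cxcr4.

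Most adhesion and migration receptors fell, as most homing genes did, and the lists share Ccr7, Ccr9, Cxcr4 and Itgb7. In the list of chemokine receptors and integrins, 14 fell and 3 rose of 22 members measured (23 listed) (median log2 fold change -1.48). Cxcr4, the receptor for CXCL12, had 5.66, 8.16, 5.58 and 4.84 CPM in the stimulated libraries, against 418, 375 and 288 CPM in the naive libraries (log2 fold change -5.89 ± 0.43, adjusted p = 2.7e-17). Itga4, the alpha-4 integrin chain, had 42.1, 55.7, 49.01 and 43.96 CPM in the stimulated libraries, against 535, 520.2 and 522 CPM in the naive libraries (log2 fold change -3.46 ± 0.27, adjusted p = 2.4e-16). Both fell without overlap. Ccr9, the gut-homing receptor, fell to 0.318 ± 0.129 CPM after stimulation, against 13.1 ± 1.77 CPM in naive cells (log2 fold change -5.33 ± 0.54, adjusted p = 1.7e-12). Itgb1, the beta-1 integrin chain, rose (log2 fold change 1.58 ± 0.19, adjusted p = 4.3e-10), as did Ccr4 and Ccr8. Itgal, the LFA-1 alpha chain, had 853, 774, 779 and 811 CPM in the stimulated libraries, against 871, 841 and 847 CPM in the naive libraries and was not called. Selplg, the P-selectin ligand, fell (log2 fold change -1.9 ± 0.18, adjusted p = 1.9e-13).

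The antigen receptor complex and the kinases next to it were lower 24 h after engagement. Of the 24 receptor complex and proximal signalling genes, 18 fell and 4 rose, with a median log2 fold change of -0.97. Lck, the kinase that starts receptor signalling, had 579.6, 547, 635 and 574 CPM in the stimulated libraries, against 1342, 1171 and 1284 CPM in the naive libraries. Its stimulated libraries were all below its naive ones (log2 fold change -1.12 ± 0.08, adjusted p = 1.2e-16). Cd4 had 589, 532, 512 and 579 CPM in the stimulated libraries, against 1148, 1023 and 1125 CPM in the naive libraries (log2 fold change -0.99 ± 0.11, adjusted p = 2.8e-11). Prkcq, the protein kinase C that links CD28 to NF-kB, had 183, 201, 231 and 208 CPM in the stimulated libraries, against 541, 517 and 491 CPM in the naive libraries (log2 fold change -1.33 ± 0.11, adjusted p = 2.1e-15). Neither overlapped between groups. Cd3e fell less, with 284, 284, 382 and 384 CPM in the stimulated libraries, against 478, 464 and 489 CPM in the naive libraries (log2 fold change -0.52 ± 0.19, adjusted p = 0.014). The 4 members that rose were Zap70, Lcp2, Cd5 and Cd6, and the scaffold proteins Bcl10 and Malt1 were not called.

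The inhibitors of receptor signalling split. In the list of brakes, 13 fell and 5 rose of 24 members (median log2 fold change -0.63), and the rest were not called. Dgka, the diacylglycerol kinase that limits RAS signalling, had 192, 282, 362 and 367 CPM in the stimulated libraries, against 2142, 2112 and 2205 CPM in the naive libraries. The groups lay far apart (log2 fold change -2.84 ± 0.27, adjusted p = 1.6e-13), and stimulated library 1 was the lowest. Dgkz, its relative, fell by less (log2 fold change -1.06 ± 0.18, adjusted p = 4.9e-07). Cblb, the ubiquitin ligase that sets the need for CD28, had 168, 206, 201 and 219 CPM in the stimulated libraries, against 195, 199 and 179 CPM in the naive libraries, and its libraries overlapped (log2 fold change 0.06, adjusted p = 0.81). Ubash3b, a phosphatase acting on receptor kinases, had 58.7, 86.8, 76.8 and 80.9 CPM in the stimulated libraries, against 34.8, 35.8 and 35.003 CPM in the naive libraries (log2 fold change 1.11 ± 0.21, adjusted p = 6.2e-06), every stimulated library above the naive ones. Dusp5, a nuclear ERK phosphatase, fell (log2 fold change -1.3 ± 0.3, adjusted p = 1.3e-04), whereas Dusp6, its cytoplasmic counterpart, was at 61.7 ± 27.1 CPM after stimulation, against 87.2 ± 17.3 CPM in naive cells and was not called. Spry2 fell (log2 fold change -0.74 ± 0.31, adjusted p = 0.029) with overlapping libraries.

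Activation markers went both ways. Of the 26 activation markers, 14 rose and 8 fell, with a median log2 fold change of 0.74. Il2ra, the high-affinity IL-2 receptor chain, had 527, 647, 637 and 693 CPM in the stimulated libraries, against 23.6, 27.7 and 31.9 CPM in the naive libraries. All stimulated libraries were far above all naive ones (log2 fold change 4.5 ± 0.23, adjusted p = 1.3e-22). Irf4, a transcription factor that scales with receptor signal, had 1384, 1220.3, 1174 and 1579.98 CPM in the stimulated libraries, against 70.2, 73.8 and 69.1 CPM in the naive libraries (log2 fold change 4.24 ± 0.21, adjusted p = 1.2e-23). Tfrc, the transferrin receptor, had 1274, 1083, 986 and 1018 CPM in the stimulated libraries, against 94.4, 79.1 and 56.7 CPM in the naive libraries (log2 fold change 3.83 ± 0.21, adjusted p = 1.1e-21). Myc had 323, 380.2, 258 and 371 CPM in the stimulated libraries, against 156, 157 and 168 CPM in the naive libraries, a smaller rise without overlap (log2 fold change 1.05 ± 0.18, adjusted p = 1.4e-06). Cd44 was also higher (log2 fold change 0.96 ± 0.27, adjusted p = 0.0013). Immediate-early genes, which are known for brief transcription soon after a stimulus, and their relatives were split. Nr4a1, Egr1, Fos, Fosb, Jun, Junb and Fosl2 were among the 8 that fell. Nr4a2, Nr4a3, Egr2, Egr3 and Fosl1 were among the 14 that rose. Nr4a1, an orphan nuclear receptor, had 94.6, 151, 63.9 and 139.6 CPM in the stimulated libraries, against 587, 344 and 323 CPM in the naive libraries (log2 fold change -1.9 ± 0.31, adjusted p = 4.9e-07). Egr1, a zinc finger factor, had 41.4, 50.7, 32.1 and 85.98 CPM in the stimulated libraries, against 219.9, 125 and 123 CPM in the naive libraries (log2 fold change -1.57 ± 0.3, adjusted p = 1.0e-05). Naive library 1 was the highest for both, as it was for the dissociation genes, and without it the log2 fold changes were -1.61 for Nr4a1 and -1.28 for Egr1, still called. Cd69, a membrane marker of recent activation, had 283, 258, 216 and 272 CPM in the stimulated libraries, against 571, 389 and 250.2 CPM in the naive libraries, and overlapped between the groups (log2 fold change -0.65, adjusted p = 0.057). Egr2, a factor linked to unresponsiveness, had 25.6, 34.5, 25.4 and 56.8 CPM in the stimulated libraries, against 29.8, 16.6 and 16.1 CPM in the naive libraries. It was called (log2 fold change 0.78 ± 0.3, adjusted p = 0.018) although its libraries overlapped, and was not called without naive library 2 or without naive library 4.

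Cytokine genes changed in both directions. Of the 25 cytokine genes, 6 rose and 5 fell, with a median log2 fold change of 0.91, and the other 14 were not called. The median was 0.15 without stimulated library 2, and 0.07 over the 15 members tested when only the 7 WT libraries were fitted. The summed level of the list was 493 to 606 CPM in the stimulated libraries, against 1149 to 1321 CPM in the naive libraries. Il2, the main growth factor of activated T cells, had 15.5, 11.8, 4.83 and 11.3 CPM in the stimulated libraries, against 0.561, 0.339 and 0.237 CPM in the naive libraries. Stimulated library 3 had the lowest stimulated level, yet all 4 were above the naive libraries (log2 fold change 4.83 ± 0.95, adjusted p = 1.2e-05). Ifng had 8.57, 15.5, 4.03 and 5.81 CPM in the stimulated libraries, against 4.18, 3.77 and 2.79 CPM in the naive libraries, overlapped, and was not called (log2 fold change 1.24, adjusted p = 0.13). Tnf fell (log2 fold change -1.3 ± 0.42, adjusted p = 0.0049) and Ltb, which shapes lymphoid tissue, had 60.3, 92.2, 96.7 and 100.1 CPM in the stimulated libraries, against 549, 466 and 510.2 CPM in the naive libraries (log2 fold change -2.54 ± 0.26, adjusted p = 3.5e-12). Cd40lg, the ligand that helps B cells, had 28.8, 46.2, 18.1 and 45.5 CPM in the stimulated libraries, against 140.03, 128 and 125 CPM in the naive libraries (log2 fold change -1.92 ± 0.31, adjusted p = 2.9e-07). It too was lower in every stimulated library. Il3, Il5, Il9, Il13 and Il24 had no count in naive libraries.

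Costimulatory and inhibitory receptors mostly rose. Of the 20 costimulatory and inhibitory receptors, 11 rose and 5 fell, with a median log2 fold change of 1.02. Pdcd1, which encodes PD-1, had 163, 134, 124 and 163 CPM in the stimulated libraries, against 5.92, 8.28 and 9.28 CPM in the naive libraries (log2 fold change 4.22 ± 0.27, adjusted p = 1.8e-19). Icos, a CD28-family costimulator, had 256, 272, 241 and 241 CPM in the stimulated libraries, against 73.2, 79.5 and 58.7 CPM in the naive libraries (log2 fold change 1.84 ± 0.16, adjusted p = 3.7e-14). Ctla4, the inhibitory counterpart of CD28, had 262, 286, 242 and 178 CPM in the stimulated libraries, against 75.3, 78.1 and 62.001 CPM in the naive libraries (log2 fold change 1.75 ± 0.24, adjusted p = 9.2e-09). None of these overlapped between the groups. Tnfrsf18, the receptor GITR, rose (log2 fold change 1.28 ± 0.17, adjusted p = 5.3e-09), as did the inhibitory receptor Btla (log2 fold change 0.98 ± 0.24, adjusted p = 2.5e-04). Cd28 itself had 363, 469, 389.7 and 461 CPM in the stimulated libraries, against 446, 362 and 282 CPM in the naive libraries, with overlap, and was not called (log2 fold change 0.21, adjusted p = 0.29).

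Downstream of the receptor, NF-kB subunits rose while other members of the pathway went both ways. In the NF-kB list, 12 fell and 6 rose of 22 members (median log2 fold change -0.57). Nfkb1 had 819, 805, 731 and 687 CPM in the stimulated libraries, against 334, 331 and 370.02 CPM in the naive libraries (log2 fold change 1.14 ± 0.12, adjusted p = 8.0e-12), Nfkb2 rose by 1.5, Rel by 1.04 and Relb by 0.71 on the log2 scale. All 4 subunits had stimulated libraries above the naive ones, and Rela was not called. The 12 that fell hold inhibitors such as Nfkbia, Tnip1 and Cyld and also the activating kinases Ikbkb, Ikbke and Map3k14, while the inhibitors Nfkbib and Tnip2 rose and Nfkbie was not called. Tnfaip3, the ubiquitin editor A20 that shuts the pathway off, had 86.5, 91.7, 94.7 and 71.7 CPM in the stimulated libraries, against 1964, 1499.6 and 1457 CPM in the naive libraries (log2 fold change -4.25 ± 0.4, adjusted p = 2.1e-13). It had the largest change of those named from this list, and dissociation genes fell beside it. Of the calcineurin and NFAT genes, 10 fell and 3 rose of 19 members measured (20 listed) (median log2 fold change -0.47). Nfatc3 fell (log2 fold change -0.86 ± 0.11, adjusted p = 1.2e-09) and Rcan3, a calcineurin regulator, fell (log2 fold change -0.94 ± 0.16, adjusted p = 1.4e-06). Nfatc1 had 235, 274, 280.4 and 309 CPM in the stimulated libraries, against 191, 216 and 229 CPM in the naive libraries and was not called (log2 fold change 0.37, adjusted p = 0.086). The potassium channels Kcna3 (33.6 ± 8.47 CPM after stimulation, against 37.6 ± 2.98 CPM in naive cells) and Kcnn4 (227 ± 17.99 CPM after stimulation, against 226 ± 19.8 CPM in naive cells), which sustain calcium entry, were not called.

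**Figure D3:**
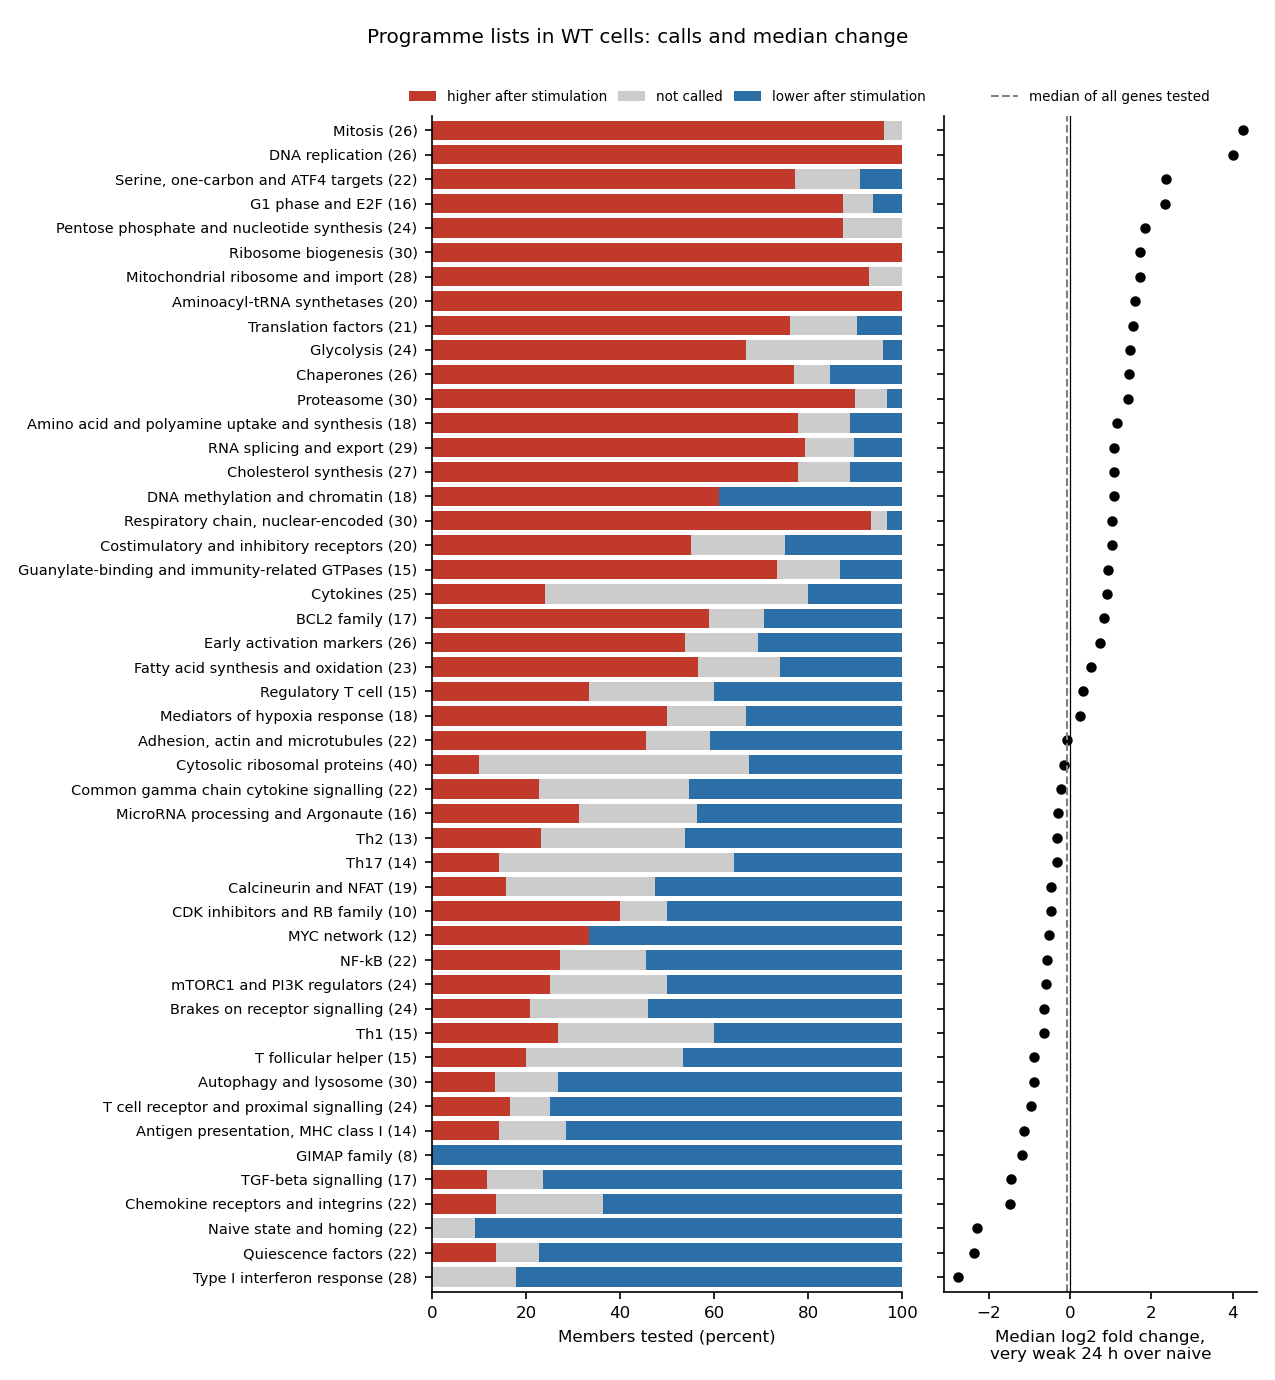
Percent of tested members called higher, not called or called lower in each of the 48 programme lists (bars, number tested in brackets), and the median log2 fold change, stimulated over naive, as a point beside the median of all genes (dashed line). DNA replication and mitosis lie furthest to the right and the interferon response furthest to the left, with medians of 4.0, 4.25 and -2.77.

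Cell cycle genes rose from G1 phase through to mitosis. Of the 16 G1-phase genes, 14 rose and 1 fell, with a median log2 fold change of 2.34, of the 26 members for DNA replication, 26 rose and none fell (median 4.0), and of the 26 members for mitosis, 25 rose and none fell (median 4.25). E2f1, the transcription factor that drives S-phase genes, had 81.8, 78.7, 79.4 and 80.9 CPM in the stimulated libraries, against 3.93, 5.66 and 5.4 CPM in the naive libraries (log2 fold change 4.0 ± 0.15, adjusted p = 3.4e-28). Ccnd2, the D-type cyclin of lymphocytes, had 1069.7, 1126, 988 and 1123 CPM in the stimulated libraries, against 463, 445 and 520.3 CPM in the naive libraries (log2 fold change 1.18 ± 0.12, adjusted p = 9.3e-13). The replication licensing factor Cdc6 had 159.7, 142, 109.5 and 140.5 CPM in the stimulated libraries, against 3.06, 4.98 and 2.84 CPM in the naive libraries (log2 fold change 5.25 ± 0.19, adjusted p = 4.0e-29). For each of these the lowest stimulated library lay above the highest naive one. Mcm5, a subunit of the replicative helicase, had 939.7, 827, 893 and 843 CPM in the stimulated libraries, against 53.99, 55.3 and 62.1 CPM in the naive libraries (log2 fold change 3.94 ± 0.12, adjusted p = 6.8e-32). Rrm2, which makes deoxynucleotides, had 345, 344, 263 and 349 CPM in the stimulated libraries, against 12.7, 15.5 and 8.67 CPM in the naive libraries (log2 fold change 4.72 ± 0.18, adjusted p = 5.0e-28), with stimulated library 3 the lowest of its group. Mki67, the proliferation antigen Ki-67, had 726, 915, 580.1 and 859 CPM in the stimulated libraries, against 28.8, 55.9 and 34.2 CPM in the naive libraries (log2 fold change 4.28 ± 0.23, adjusted p = 6.2e-22). Cdk1, the mitotic kinase, had 189.6, 186, 148 and 171 CPM in the stimulated libraries, against 2.35, 6.001 and 3.74 CPM in the naive libraries (log2 fold change 5.42 ± 0.2, adjusted p = 1.1e-28). Its partner Ccnb1 had 41.6, 42.4, 26.3 and 37.5 CPM in the stimulated libraries, against 1.07, 2.52 and 0.853 CPM in the naive libraries (log2 fold change 4.63 ± 0.25, adjusted p = 9.8e-22). No naive library came near a stimulated one for these 3 genes, and naive library 2 was the highest of its group. Ccnd3 had 243, 234, 191 and 248 CPM in the stimulated libraries, against 266, 268 and 265 CPM in the naive libraries and was not called, and the centromere histone Cenpa was the 1 mitotic member not called.

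The promoter of Cdc6 is shown because the gene had the largest rise of the replication genes named and holds a match to the E2F motif. It is RefSeq sequence of build GRCm38.p6, the assembly also called mm10, chr11:98907983-98908052, plus strand, 5′ to 3′, with the match to TTTCCCGC (here on the opposite strand) in capitals, starting at -138 from the listed start.
Cdc6: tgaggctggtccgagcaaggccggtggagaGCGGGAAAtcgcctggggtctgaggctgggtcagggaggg
The motif was looked for on both strands from 250 bases before to 50 after each start. It was present in 4 of 22 replication genes with a promoter sequence (18.2%), and in 1.11% of all 27025 promoters and 2.06% of the 10795 promoters of tested genes. A match is a description of letters and not of binding.

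Inhibitors of the cycle were divided. In the list of CDK inhibitors and RB proteins, 5 fell and 4 rose of 10 members measured (12 listed) (median log2 fold change -0.48), and the median was -0.32 without naive library 1. Over all genes tested 40.2% fell and 36.1% rose, so the calls of this list were divided much as those of all genes. Cdkn1b, the p27 inhibitor that holds naive cells in G0, had 24.1, 29.6, 33.5 and 33.8 CPM in the stimulated libraries, against 294, 264 and 288 CPM in the naive libraries (log2 fold change -3.22 ± 0.22, adjusted p = 6.9e-18). Cdkn1a, the p21 inhibitor, had 33.8, 29.7, 35.1 and 71.7 CPM in the stimulated libraries, against 3.32, 2.9 and 1.8 CPM in the naive libraries (log2 fold change 4.0 ± 0.5, adjusted p = 6.7e-10). The 2 genes moved in opposite directions, each without overlap, and stimulated library 4 had the highest Cdkn1a. Rbl2 (log2 fold change -1.71 ± 0.18, adjusted p = 2.6e-12) and Rb1 (log2 fold change -0.46 ± 0.14, adjusted p = 0.0025) fell, and Rbl1 rose slightly (log2 fold change 0.31 ± 0.12, adjusted p = 0.014) with overlapping libraries.

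Genes of the MYC network went both ways, and not by role alone. In that list, 8 fell and 4 rose of 12 members (median log2 fold change -0.51): Myc, Mycn, Max and Mxd3 were the 4 that rose. Mycl, a relative of Myc, fell, as did the antagonists Mxd1, Mxd4, Mxi1 and Mnt, whereas Mxd3 belongs to the same family of antagonists and rose. Mxd4, a MAX partner that represses MYC targets, had 1.9, 3.09, 3.97 and 2.95 CPM in the stimulated libraries, against 28.4, 30.4 and 41.3 CPM in the naive libraries (log2 fold change -3.48 ± 0.28, adjusted p = 1.0e-15). Mxi1, another antagonist, fell less (log2 fold change -0.72 ± 0.24, adjusted p = 0.0063). Mxd4 is shown because it moved against Myc and its promoter holds the E-box CACGTG (capitals) that MYC and its antagonists share, starting at -219 (chr5:34187890-34187959, minus strand, GRCm38.p6).
Mxd4: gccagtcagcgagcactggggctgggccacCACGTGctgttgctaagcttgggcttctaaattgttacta
The E-box was found in 4 of 11 network genes with a promoter sequence (36.4%), in 7 of 25 ribosome biogenesis genes (28%), in 7.24% of all promoters and in 10.1% of those of tested genes.

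The machinery that makes ribosomes rose as a whole. Of the 30 ribosome biogenesis genes, 30 rose and none fell, with a median log2 fold change of 1.73. Ncl, the nucleolar protein nucleolin, had 5882, 4893, 4863 and 4404 CPM in the stimulated libraries, against 873, 786 and 679 CPM in the naive libraries (log2 fold change 2.68 ± 0.16, adjusted p = 6.4e-20). Npm1, a nucleolar chaperone, had 3057, 2549, 2857 and 2366 CPM in the stimulated libraries, against 571, 537 and 382 CPM in the naive libraries (log2 fold change 2.45 ± 0.17, adjusted p = 1.0e-17). Stimulated library 1 was the highest for both. Nolc1 (log2 fold change 2.56 ± 0.15, adjusted p = 4.0e-21) and Polr1b, a subunit of RNA polymerase I (log2 fold change 2.07 ± 0.14, adjusted p = 8.1e-19), also rose without overlap. The ribosomal proteins themselves did not follow. In that list, 13 fell and 4 rose of 40 members (median log2 fold change -0.16), and 23 were not called. Rplp0 had 3540.2, 3111, 3573 and 3394 CPM in the stimulated libraries, against 3719, 3333 and 3057 CPM in the naive libraries (log2 fold change 0.01, adjusted p = 0.92), and its libraries overlapped. The median of the list ran from -0.08 to -0.22 under other scalings, and 1 naive library moved its calls: 2 rose and 16 fell (median -0.29) without naive library 4, and 4 rose and 9 fell (median -0.09) without naive library 1.

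Protein synthesis and folding genes rose around the ribosome. Of the 21 translation factors, 16 rose and 2 fell, with a median log2 fold change of 1.55. Eif5a, the hypusinated elongation factor, had 2529, 2266, 2509 and 2246 CPM in the stimulated libraries, against 416, 362 and 368 CPM in the naive libraries (log2 fold change 2.64 ± 0.13, adjusted p = 1.6e-23). Eif4e, the cap-binding protein, had 222, 188, 171 and 175 CPM in the stimulated libraries, against 53.9, 50.5 and 42.8 CPM in the naive libraries (log2 fold change 1.94 ± 0.14, adjusted p = 1.6e-17). Both rose without overlap. Pdcd4, an inhibitor of the helicase eIF4A, had 60.3, 80.9, 104 and 63.5 CPM in the stimulated libraries, against 401, 342 and 366 CPM in the naive libraries (log2 fold change -2.26 ± 0.21, adjusted p = 2.3e-13), and Eef1a1, the main elongation factor, fell slightly (log2 fold change -0.48 ± 0.14, adjusted p = 0.0021). Of the 20 aminoacyl-tRNA synthetases, 20 rose and none fell, with a median log2 fold change of 1.6. Gars, which charges glycine tRNA, rose to 427 ± 36.6 CPM after stimulation, against 108 ± 4.4 CPM in naive cells (log2 fold change 1.99 ± 0.18, adjusted p = 2.3e-14). Of the 30 proteasome genes, 27 rose and 1 fell, with a median log2 fold change of 1.42. The constitutive subunit Psmb5 rose (log2 fold change 1.71 ± 0.15, adjusted p = 2.0e-14), while of the immunoproteasome subunits Psmb10 fell (log2 fold change -1.14 ± 0.17, adjusted p = 9.5e-08) and Psmb8 (log2 fold change 0.16, adjusted p = 0.32) and Psmb9 (0.19, adjusted p = 0.26) were not called. Of the 26 chaperones, 20 rose and 4 fell, with a median log2 fold change of 1.45. Hspd1, the mitochondrial chaperonin, had 1749, 1438, 1433 and 1369.6 CPM in the stimulated libraries, against 237, 141 and 145 CPM in the naive libraries (log2 fold change 3.1 ± 0.18, adjusted p = 1.2e-20). The 4 chaperones that fell were Dnajb1, Hspa1a, Hspa1b and Hspb1, all heat-shock induced and all on or related to the dissociation list. Hspa5, the chaperone of the endoplasmic reticulum, had 1325, 1086, 825 and 1121 CPM in the stimulated libraries, against 1025, 754 and 697 CPM in the naive libraries (log2 fold change 0.4 ± 0.18, adjusted p = 0.045). Its call was lost without naive library 2 or without naive library 4.

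Glycolysis rose at most steps, from uptake to lactate. Of the 24 glycolysis genes, 16 rose and 1 fell, with a median log2 fold change of 1.46. Hk2, the inducible hexokinase, had 152, 167, 80.9 and 125 CPM in the stimulated libraries, against 2.25, 2.13 and 3.51 CPM in the naive libraries (log2 fold change 5.64 ± 0.35, adjusted p = 1.3e-19). Tpi1, which interconverts the triose phosphates, had 899.6, 996, 781 and 806 CPM in the stimulated libraries, against 49.4, 42.3 and 45.9 CPM in the naive libraries (log2 fold change 4.25 ± 0.2, adjusted p = 3.5e-24). Ldha, the lactate dehydrogenase chain of proliferating cells, had 2628, 2492, 2292 and 2329.5 CPM in the stimulated libraries, against 491, 419 and 421 CPM in the naive libraries (log2 fold change 2.46 ± 0.15, adjusted p = 7.0e-20). None of the 3 had overlapping libraries. The glucose carrier Slc2a1 rose (log2 fold change 1.45 ± 0.21, adjusted p = 4.1e-08), and the lactate exporter Slc16a3 had 45.6, 85.6, 31.3 and 59.6 CPM in the stimulated libraries, against 2.4, 2.03 and 2.27 CPM in the naive libraries (log2 fold change 4.63 ± 0.44, adjusted p = 2.7e-13). The carrier Slc2a3 had 45.4, 53.4, 36.4 and 47.5 CPM in the stimulated libraries, against 70.8, 70.6 and 75.9 CPM in the naive libraries and was not called (log2 fold change -0.66, adjusted p = 0.12), although its libraries did not overlap. Pdk1, a kinase that inhibits pyruvate dehydrogenase, was the 1 member that fell.

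Precursor pathways for nucleotides and one-carbon units rose alongside. Of the 24 genes of the pentose phosphate pathway and nucleotide synthesis, 21 rose and none fell, with a median log2 fold change of 1.83. Cad, which starts pyrimidine synthesis, had 831, 778, 685 and 792 CPM in the stimulated libraries, against 98.4, 99.01 and 116 CPM in the naive libraries (log2 fold change 2.89 ± 0.2, adjusted p = 5.2e-18). Ctps, the CTP synthase that lymphocytes depend on, had 249.5, 196, 171 and 186 CPM in the stimulated libraries, against 37.2, 33.5 and 33.3 CPM in the naive libraries (log2 fold change 2.53 ± 0.15, adjusted p = 2.5e-20). Both were higher in all 4 stimulated libraries. In the list of serine, one-carbon and ATF4 genes, 17 rose and 2 fell of 22 members (median log2 fold change 2.37). Psat1, an enzyme of serine synthesis, had 487, 398, 375 and 399 CPM in the stimulated libraries, against 34.1, 34.9 and 32.1 CPM in the naive libraries (log2 fold change 3.62 ± 0.19, adjusted p = 6.1e-23). Shmt2, which feeds serine into mitochondrial one-carbon units, had 623, 536, 567 and 561 CPM in the stimulated libraries, against 86.4, 89.1 and 111 CPM in the naive libraries (log2 fold change 2.58 ± 0.14, adjusted p = 2.7e-22). Asns, the asparagine synthetase and a classical ATF4 target, had 20.5, 15.5, 17.4 and 16.1 CPM in the stimulated libraries, against 1.12, 2.42 and 1.18 CPM in the naive libraries (log2 fold change 3.45 ± 0.67, adjusted p = 8.9e-06). These 3 rose without overlap, while Atf4 itself was not called (log2 fold change 0.29, adjusted p = 0.19). Ddit4, an inhibitor of mTORC1 induced by stress, fell (log2 fold change -1.63 ± 0.35, adjusted p = 5.3e-05). Ddit3 was the other member that fell.

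The Asns promoter is printed for its match to the amino acid response motif TGATGNAA, in capitals, at -23 from the start (chr6:7693210-7693262, minus strand, GRCm38.p6).
Asns: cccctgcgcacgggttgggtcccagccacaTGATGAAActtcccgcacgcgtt
The motif was found in 5 of 20 promoters of that list (25%), in 4.06% of all promoters and in 2.31% of those of tested genes.

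Uptake of amino acids and synthesis of polyamines rose in most members. Of the 18 amino acid and polyamine genes, 14 rose and 2 fell, with a median log2 fold change of 1.16. Slc7a5, the large neutral amino acid carrier, had 329, 309, 298 and 269 CPM in the stimulated libraries, against 64.1, 61.6 and 68.2 CPM in the naive libraries (log2 fold change 2.22 ± 0.2, adjusted p = 8.1e-14). Odc1, the first enzyme of polyamine synthesis, had 714, 608, 579.8 and 555 CPM in the stimulated libraries, against 126, 88.6 and 79.1 CPM in the naive libraries (log2 fold change 2.65 ± 0.21, adjusted p = 1.3e-15). Srm, the spermidine synthase, had 484, 380.4, 398 and 371 CPM in the stimulated libraries, against 41.7, 35.5 and 48.03 CPM in the naive libraries (log2 fold change 3.29 ± 0.18, adjusted p = 1.4e-21). All stimulated libraries exceeded all naive ones for the 3 genes. Sat1, which breaks polyamines down, fell (log2 fold change -0.44 ± 0.14, adjusted p = 0.0052).

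Most genes of sterol synthesis rose, and the sterol exporters Abca1 and Abcg1 fell. Of the 27 cholesterol genes, 21 rose and 3 fell, with a median log2 fold change of 1.07. Hmgcs1, which makes HMG-CoA, had 231, 169.6, 159 and 169 CPM in the stimulated libraries, against 44.04, 36.4 and 41.4 CPM in the naive libraries (log2 fold change 2.16 ± 0.19, adjusted p = 8.7e-15). Idi1, an isomerase of the isoprenoid branch, had 73.5, 52.3, 48.6 and 49.2 CPM in the stimulated libraries, against 7.09, 4.45 and 4.88 CPM in the naive libraries (log2 fold change 3.35 ± 0.26, adjusted p = 1.6e-16). Stimulated library 1 was the highest for both. Abcg1, a sterol exporter driven by LXR receptors, had 14.97, 19.7, 16.7 and 17.01 CPM in the stimulated libraries, against 162, 164 and 174 CPM in the naive libraries (log2 fold change -3.28 ± 0.17, adjusted p = 8.5e-23), and its relative Abca1 fell too (log2 fold change -3.81 ± 0.48, adjusted p = 7.5e-10). Macrophages also express both exporters. The other member that fell, Tm7sf2, is an enzyme of sterol synthesis. In the fatty acid list, 13 rose and 6 fell of 23 members measured (26 listed) (median log2 fold change 0.51): Fasn, the fatty acid synthase, rose (log2 fold change 1.7 ± 0.22, adjusted p = 1.2e-09), and Cpt1a, the carrier enzyme that commits fatty acids to oxidation, fell (log2 fold change -2.08 ± 0.19, adjusted p = 1.0e-13). Other members went against this pair. The oxidation genes Cpt2, Acadl, Hadha and Hadhb rose, and the desaturase Scd1 and the elongase Elovl5 fell. Hmgcs1 was the 1 gene of 18 cholesterol genes with a promoter sequence that matched the sterol response motif TCACNCCAC (5.56%, against 1.22% of all promoters and 1.01% of those of tested genes), at -137 (chr13:119690184-119690253, plus strand, GRCm38.p6, match in capitals).
Hmgcs1: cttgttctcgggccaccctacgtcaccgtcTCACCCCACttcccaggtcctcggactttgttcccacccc

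Nuclear genes for mitochondrial proteins rose in nearly every member. Of the 30 nuclear-encoded respiratory chain genes, 28 rose and 1 fell, with a median log2 fold change of 1.02. Cycs, cytochrome c, had 185, 158, 179 and 137 CPM in the stimulated libraries, against 45.6, 35.3 and 32.97 CPM in the naive libraries (log2 fold change 2.12 ± 0.17, adjusted p = 1.0e-15). Atp5a1, a subunit of ATP synthase, had 1547, 1455, 1505 and 1426 CPM in the stimulated libraries, against 654, 603 and 597 CPM in the naive libraries (log2 fold change 1.26 ± 0.08, adjusted p = 1.1e-18). Of the 28 genes of the mitochondrial ribosome and of import, 26 rose and none fell, with a median log2 fold change of 1.72. Mrpl12, a mitochondrial ribosomal protein, had 282, 232, 274 and 236 CPM in the stimulated libraries, against 43.1, 43.6 and 42.8 CPM in the naive libraries (log2 fold change 2.57 ± 0.16, adjusted p = 2.3e-19). None of these overlapped between the groups. Tfam, which packages mitochondrial DNA, rose by less (log2 fold change 0.9 ± 0.09, adjusted p = 1.2e-12). Cox7a2l was the 1 respiratory member that fell.

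Recycling and its regulators went the other way. In the autophagy and lysosome list, 22 fell and 4 rose of 30 members (median log2 fold change -0.9). Laptm5, a lysosomal protein that lowers receptor levels in lymphocytes, had 334, 366, 481 and 422 CPM in the stimulated libraries, against 1551, 1439.5 and 1539 CPM in the naive libraries (log2 fold change -1.91 ± 0.21, adjusted p = 2.7e-11). Ctsd, a lysosomal protease, had 129.5, 122, 150.04 and 140.2 CPM in the stimulated libraries, against 369.5, 359 and 401 CPM in the naive libraries (log2 fold change -1.48 ± 0.11, adjusted p = 2.0e-16). Sqstm1, the autophagy receptor p62, had 92.2, 96.5, 104 and 94.9 CPM in the stimulated libraries, against 249.6, 219 and 239 CPM in the naive libraries (log2 fold change -1.28 ± 0.13, adjusted p = 2.5e-12). All 3 were lower in every stimulated library. Macrophages are rich in lysosomal genes, and myeloid markers fell beside these. Tfeb, the master regulator of the lysosome, fell (log2 fold change -1.09 ± 0.2, adjusted p = 3.9e-06), and Lamp1 was not called (log2 fold change 0.19, adjusted p = 0.11). Among regulators of mTORC1 and PI3 kinase, 12 fell and 6 rose of 24 members (median log2 fold change -0.58). Sesn1, a sestrin that holds mTORC1 off, fell (log2 fold change -2.03), as did Inpp5d, the phosphatase SHIP1 (-0.92). The PI3 kinase genes Pik3cd, Pik3cg and Pik3r5 fell too, and the inhibitors Depdc5 and Phlpp2 rose with Mtor, Akt1 and Akt2. The calls of this list thus did not divide by role.

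Genes of the type I interferon response fell, while guanylate-binding and immunity-related GTPases, which interferon-gamma also induces, rose. Of the 28 interferon response genes, 23 fell and none rose, with a median log2 fold change of -2.77, the lowest median of the programme lists. Irf7, which amplifies type I interferon, had 1.27, 3.85, 5.43 and 4.69 CPM in the stimulated libraries, against 105, 125 and 132 CPM in the naive libraries (log2 fold change -4.98 ± 0.83, adjusted p = 5.3e-07). Isg15, a ubiquitin-like modifier, had 3.76, 5.42, 3.07 and 4.33 CPM in the stimulated libraries, against 28.6, 35.2 and 19.5 CPM in the naive libraries (log2 fold change -2.74 ± 0.87, adjusted p = 0.0041). Ifit3, an antiviral RNA-binding partner, had 3.44, 6.18, 7.3 and 4.84 CPM in the stimulated libraries, against 30.3, 52.7 and 31.6 CPM in the naive libraries (log2 fold change -2.81 ± 0.85, adjusted p = 0.0029). Stat2, a subunit of the factor that interferon activates, had 26.2, 35.3, 41.8 and 36.8 CPM in the stimulated libraries, against 95.02, 103 and 111 CPM in the naive libraries (log2 fold change -1.56 ± 0.43, adjusted p = 0.0011). No stimulated library reached a naive one for these 4 genes. Members not called included Mx2, Ifih1, Bst2 and Eif2ak2. In contrast, of the 15 members of the guanylate-binding and immunity-related families, 11 rose and 2 fell (median log2 fold change 0.94). Gbp2, a GTPase that attacks intracellular pathogens, had 1096, 1239, 1705 and 1579.98 CPM in the stimulated libraries, against 107, 117 and 88.999 CPM in the naive libraries (log2 fold change 3.75 ± 0.33, adjusted p = 2.3e-14). Igtp, another such GTPase, had 651, 632, 781 and 719 CPM in the stimulated libraries, against 206, 201 and 178 CPM in the naive libraries (log2 fold change 1.84 ± 0.25, adjusted p = 6.4e-09). Both rose in all stimulated libraries. Tgtp1 and Tgtp2 are near-identical copies, and their separate counts are uncertain.

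Promoters of 3 interferon genes that fell are printed because this list had the highest share of motif matches. The interferon-stimulated response motif GAAANNGAA was present in 13 of 21 members with a promoter sequence (61.9%), in 8.57% of all promoters and in 7.38% of those of tested genes; 10 of the 13 fell. Capitals mark each match on either strand within the stretch printed, including overlapping ones; 1 of the 3 matches of Ifit3 lies outside it. All stretches are GRCm38.p6: Isg15 lies at chr4:156200857-156200926, minus strand (first match at -78), Ifit3 at chr19:34583344-34583416, plus strand (-155) and Stat2 at chr10:128270248-128270317, plus strand (-221).
Isg15: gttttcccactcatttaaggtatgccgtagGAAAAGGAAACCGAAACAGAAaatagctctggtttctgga
Ifit3: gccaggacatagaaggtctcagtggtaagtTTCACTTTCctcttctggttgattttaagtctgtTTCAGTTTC
Stat2: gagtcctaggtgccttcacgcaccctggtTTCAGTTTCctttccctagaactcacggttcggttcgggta
The letters are shared by interferon-regulatory factors that activate and that repress, and no factor is assigned to them here.

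Antigen presentation and the GIMAP genes fell. In the class I list, 10 fell and 2 rose of 14 members (median log2 fold change -1.13). H2-K1, a class I heavy chain, had 934, 982, 1247 and 1123 CPM in the stimulated libraries, against 4244, 3682 and 4232 CPM in the naive libraries (log2 fold change -1.92 ± 0.14, adjusted p = 3.5e-17). B2m, the light chain, had 997, 1042, 1153 and 1054 CPM in the stimulated libraries, against 2624, 2345 and 1890.1 CPM in the naive libraries (log2 fold change -1.11 ± 0.17, adjusted p = 7.0e-08). Both were lower in every stimulated library. The H2-Q genes are close copies and were not weighed one by one. Nlrc5, the transactivator of class I genes, fell (log2 fold change -1.05 ± 0.2, adjusted p = 1.0e-05), and Tap1, the peptide transporter, was not called (log2 fold change 0.14, adjusted p = 0.41). All 8 GIMAP genes, small GTPases needed for lymphocyte survival, fell, with a median log2 fold change of -1.18. Gimap6 had 272, 300.3, 385 and 347 CPM in the stimulated libraries, against 1187, 1228 and 1207 CPM in the naive libraries (log2 fold change -1.89 ± 0.14, adjusted p = 7.0e-17), with no overlap.

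Genes of TGF-beta signalling, a pathway that restrains T cells, were lower. Of the 17 TGF-beta signalling genes measured (18 listed), 13 fell and 2 rose, with a median log2 fold change of -1.46. Tgfbr2, the receptor that binds the ligand, had 67.9, 85.2, 83.5 and 92.1 CPM in the stimulated libraries, against 624, 599 and 627 CPM in the naive libraries (log2 fold change -2.91 ± 0.13, adjusted p = 6.5e-25). Smad7, the feedback inhibitor of the pathway, had 12.7, 14.5, 16.8 and 17.4 CPM in the stimulated libraries, against 375, 337 and 322 CPM in the naive libraries (log2 fold change -4.49 ± 0.23, adjusted p = 7.7e-23). Smad3, a receptor-activated factor, had 22.2, 30.9, 29.03 and 29.1 CPM in the stimulated libraries, against 102, 98.9 and 121 CPM in the naive libraries (log2 fold change -1.95 ± 0.17, adjusted p = 3.8e-14). Receptor, effector and inhibitor thus fell together, each without overlap. Ski, a SMAD corepressor, fell as well (log2 fold change -1.68 ± 0.11, adjusted p = 8.3e-19). The 2 that rose were Smad2 and Tgif1.

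Receptors and effectors of the common gamma chain cytokines were rearranged. In that list, 10 fell and 5 rose of 22 members (median log2 fold change -0.22). Il2rb, the IL-2 receptor beta chain, had 331, 339, 287 and 344 CPM in the stimulated libraries, against 99.002, 109 and 127 CPM in the naive libraries (log2 fold change 1.54 ± 0.24, adjusted p = 1.6e-07), and so joined Il2ra among the rises. Cish, a feedback inhibitor induced by IL-2 through STAT5, had 97.1, 118, 105 and 71.1 CPM in the stimulated libraries, against 21.3, 19.2 and 25.5 CPM in the naive libraries (log2 fold change 2.15 ± 0.31, adjusted p = 2.6e-08), and Socs2 also rose (log2 fold change 3.17 ± 0.23, adjusted p = 2.4e-17). Jak1, a kinase bound to all these receptors, had 413, 427, 430.2 and 427 CPM in the stimulated libraries, against 1406, 1393 and 1378 CPM in the naive libraries (log2 fold change -1.71 ± 0.09, adjusted p = 1.7e-22). Its groups lay apart with little spread. Il4ra (log2 fold change -1.02 ± 0.15, adjusted p = 2.1e-08), Stat5b (log2 fold change -1.02 ± 0.13, adjusted p = 2.0e-09) and Socs3 (log2 fold change -2.5 ± 0.44, adjusted p = 1.4e-06) fell, and Stat5a (log2 fold change 0.37, adjusted p = 0.092) and Socs1 (-0.04, adjusted p = 0.91) were not called. Stimulated cells had IL-2 added to the medium, and naive cells had none.

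Among survival genes, the balance between relatives of BCL2 differed. In the BCL2 family, 10 rose and 5 fell of 17 members measured (18 listed) (median log2 fold change 0.84). Bcl2l1, which encodes BCL-XL, had 220.02, 185, 126 and 179 CPM in the stimulated libraries, against 21.1, 20.8 and 24.6 CPM in the naive libraries (log2 fold change 3.0 ± 0.26, adjusted p = 1.7e-14). Bcl2 had 64.6, 88.5, 92.7 and 86.9 CPM in the stimulated libraries, against 202, 227 and 212 CPM in the naive libraries (log2 fold change -1.36 ± 0.22, adjusted p = 3.0e-07). The 2 moved in opposite directions without overlap. Mcl1 fell (log2 fold change -0.88 ± 0.1, adjusted p = 1.7e-11). Of the killer proteins of the BH3-only type, Bmf fell (log2 fold change -2.4 ± 0.3, adjusted p = 5.9e-10), Bbc3 and Pmaip1 fell with log2 fold changes of -0.72 and -0.6, and Bcl2l11, which encodes BIM, was not called (log2 fold change -0.33, adjusted p = 0.084). The falls numbered 3 in place of 5 without stimulated library 1 or without stimulated library 2. The Bcl2a1 genes are near-identical copies.

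Genes of the effector lineages did not rise as groups. Over all genes tested, 36.1% rose and 40.2% fell. In the Th1 list, 6 fell and 4 rose of 15 members (median log2 fold change -0.65); in the Th2 list, 6 fell and 3 rose of 13 members measured (15 listed) (median log2 fold change -0.33); in the Th17 list, 5 fell and 2 rose of 14 members measured (15 listed) (median log2 fold change -0.33); and in the follicular helper list, 7 fell and 3 rose of 15 members (median log2 fold change -0.88). The Th17 median ran from -0.18 without naive library 1 to -1.39 without stimulated library 2 (-0.61 without naive library 2, -0.18 without stimulated library 3), and the Th2 median was -0.19 without stimulated library 3. Tbx21, the Th1 master factor T-bet, had 81.03, 78.7, 80.2 and 102 CPM in the stimulated libraries, against 4.24, 4.74 and 10.8 CPM in the naive libraries (log2 fold change 3.69 ± 0.47, adjusted p = 1.2e-09). Il12rb2, the inducible IL-12 receptor chain, rose with it (log2 fold change 3.31 ± 0.74, adjusted p = 9.1e-05), whereas Ifngr1 fell (log2 fold change -2.05 ± 0.12, adjusted p = 3.9e-20). Gata3, the Th2 master factor, had 13.6, 16.3, 18.8 and 12.6 CPM in the stimulated libraries, against 83.8, 70.8 and 75.1 CPM in the naive libraries (log2 fold change -2.32 ± 0.26, adjusted p = 4.4e-11). Bcl6, the follicular helper factor, had 12.7, 12.8, 10.7 and 11.5 CPM in the stimulated libraries, against 32.8, 38.2 and 40.8 CPM in the naive libraries (log2 fold change -1.65 ± 0.21, adjusted p = 1.1e-09). T-bet transcripts thus went up and those of the other 2 factors down, each without overlap. Rora, a nuclear receptor of the Th17 list, fell (log2 fold change -2.16 ± 0.32, adjusted p = 3.5e-08). Maf (log2 fold change -2.64 ± 0.46, adjusted p = 1.4e-06) and Prdm1 (log2 fold change -2.73 ± 0.46, adjusted p = 6.0e-07), both effector regulators, also fell. Markers of memory or effector T cells fell beside these genes. Among regulatory T cell genes, 5 rose and 6 fell of 15 members (median log2 fold change 0.32), with a median of 0.16 without naive library 1 and 0.19 without stimulated library 2. Foxp3 had 10.3, 10.4, 16.9 and 11.7 CPM in the stimulated libraries, against 34.8, 35.2 and 50.8 CPM in the naive libraries (log2 fold change -1.71 ± 0.28, adjusted p = 4.0e-07), and Ikzf2 fell (log2 fold change -2.36 ± 0.22, adjusted p = 1.7e-13). Both were lower in every stimulated library, while Il2ra and Ctla4, which all activated T cells share, account for 2 of the 5 rises. Nt5e was called at the edge of the threshold (log2 fold change -1.11 ± 0.52, adjusted p = 0.0499), and its libraries overlapped, with stimulated library 3 at 48.3 CPM.

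RNA control, chromatin and cell structure genes changed in both directions. In microRNA processing, 7 fell and 5 rose of 16 members measured (17 listed) (median log2 fold change -0.31), near the 40.2% lower and 36.1% higher over all genes tested. Drosha, the nuclear microRNA-processing enzyme, had 178, 164, 168 and 154 CPM in the stimulated libraries, against 68.5, 63.2 and 64.98 CPM in the naive libraries (log2 fold change 1.34 ± 0.11, adjusted p = 5.7e-15). Dicer1, the cytoplasmic one, fell (log2 fold change -0.48 ± 0.11, adjusted p = 1.6e-04). Each had non-overlapping groups. Ago2 was not called (log2 fold change -0.07, adjusted p = 0.76). Zc3h12a, the nuclease regnase-1 that degrades activation transcripts, had 17.5, 16.8, 19.4 and 20.9 CPM in the stimulated libraries, against 82.2, 70.3 and 70.4 CPM in the naive libraries (log2 fold change -1.99 ± 0.2, adjusted p = 7.2e-13). Mir17hg, the host transcript of miR-17~92, had 49.6, 51.5, 20.5 and 40.7 CPM in the stimulated libraries, against 35.9, 29.9 and 24.5 CPM in the naive libraries, overlapped, and was not called (log2 fold change 0.43, adjusted p = 0.23). Poly(A) counts of this host transcript do not measure the mature microRNAs.

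In the chromatin list, 11 rose and 7 fell of 18 members (median log2 fold change 1.07). Uhrf1, which brings DNMT1 to newly copied DNA, had 717, 646, 643 and 663 CPM in the stimulated libraries, against 11.99, 13.4 and 13.4 CPM in the naive libraries (log2 fold change 5.69 ± 0.12, adjusted p = 6.8e-39). Dnmt1, the maintenance methyltransferase, had 875, 906, 753 and 991 CPM in the stimulated libraries, against 194, 205 and 237 CPM in the naive libraries (log2 fold change 2.05 ± 0.12, adjusted p = 5.1e-21). Ezh2, the Polycomb methyltransferase of dividing cells, rose (log2 fold change 2.91 ± 0.1, adjusted p = 1.1e-30), and Ezh1, that of resting cells, fell (log2 fold change -1.93 ± 0.14, adjusted p = 2.9e-17). Tet2, which oxidises methylcytosine, fell as well (log2 fold change -1.04 ± 0.2, adjusted p = 6.9e-06). Of splicing and export genes, 23 rose and 3 fell of 29 members (median log2 fold change 1.09). Ran, the GTPase of nuclear transport, had 657, 557, 562 and 559 CPM in the stimulated libraries, against 96.9, 88.8 and 89.5 CPM in the naive libraries (log2 fold change 2.67 ± 0.12, adjusted p = 1.4e-24), and Srsf5, a splicing factor, had 338, 312, 346 and 253 CPM in the stimulated libraries, against 661, 654 and 590.3 CPM in the naive libraries (log2 fold change -1.02 ± 0.16, adjusted p = 1.2e-07). In the list of adhesion, actin and microtubule genes, 10 rose and 9 fell of 22 members (median log2 fold change -0.09), near the 36.1% higher and 40.2% lower over all genes tested. Tubulins rose, with Tubb5 at 3223 ± 98.4 CPM after stimulation, against 639 ± 17.5 CPM in naive cells (log2 fold change 2.33 ± 0.09, adjusted p = 2.7e-28), and Vim, the intermediate filament vimentin, had 54.95, 88.3, 87.7 and 80.2 CPM in the stimulated libraries, against 409, 376 and 394 CPM in the naive libraries (log2 fold change -2.34 ± 0.34, adjusted p = 2.8e-08). Of hypoxia genes, 9 rose and 6 fell of 18 members (median log2 fold change 0.23), with a median of 0.13 without naive library 4; Hif1a had 442, 542, 462 and 461 CPM in the stimulated libraries, against 140.2, 124 and 104 CPM in the naive libraries (log2 fold change 1.96 ± 0.15, adjusted p = 1.1e-16).

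**Figure D4:**
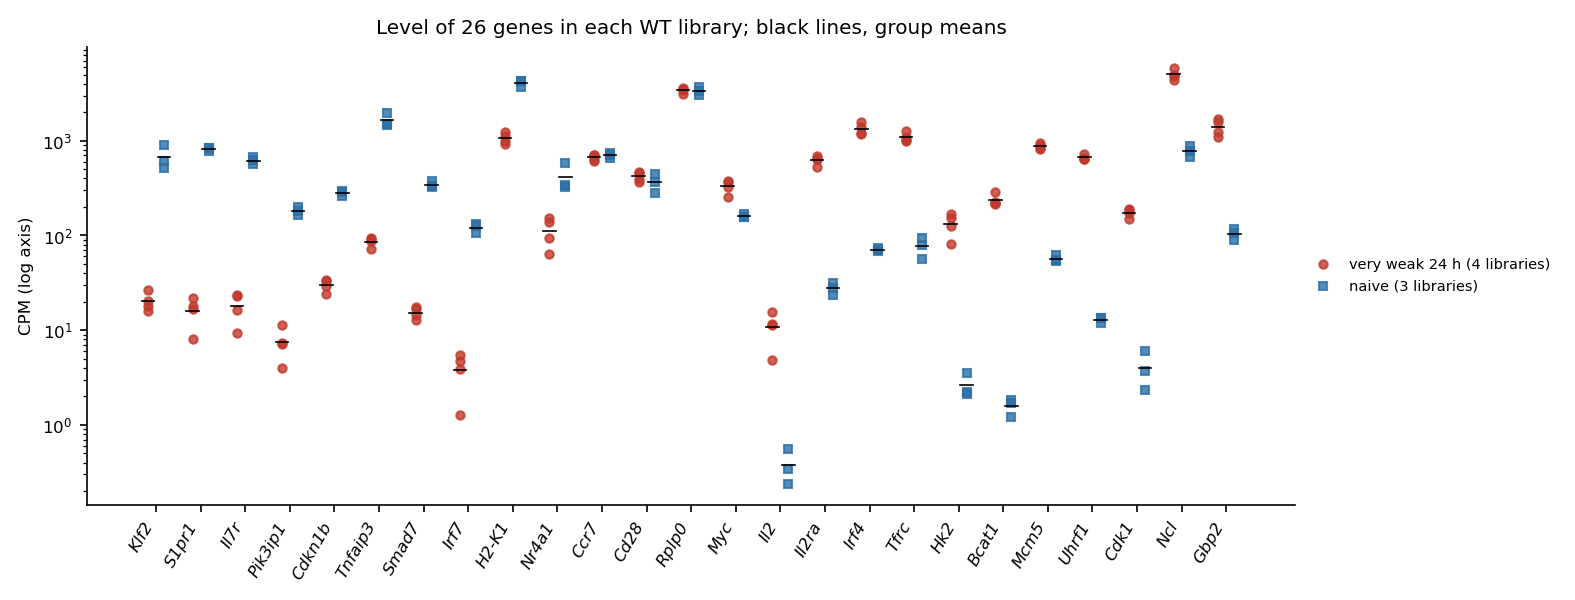
CPM (log axis) of 25 genes in each library, 4 stimulated (circles, left) and 3 naive (squares, right) per gene, with group means as black lines. Klf2, S1pr1 and Il7r are lower, and Il2ra, Cdk1 and Hk2 higher, in every stimulated library, and Ccr7, Cd28 and Rplp0 overlap.

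The intron table, a separate count of reads within introns of the same libraries, gave a second view of the change. Introns held 15.2% to 17.7% of the counts of both tables in stimulated libraries, against 24.5% to 30.7% in naive libraries. Intron counts were scaled to the intron totals, which were 3.54 to 4.2 M in stimulated libraries and 6.75 to 9.11 M in naive libraries. An intron fold change is therefore a change in the share of intron counts. Its size, and its direction where small, cannot be set directly against that of the full counts. Of 12366 genes tested, 6841 were called (55.3%), 3477 higher (28.1%) and 3364 lower (27.2%). Klf2 introns had a log2 fold change of -4.51 ± 0.43, adjusted p = 4.4e-13, beside -5.06 for the full counts, and those of S1pr1 -4.93 ± 0.51, adjusted p = 5.5e-12, beside -5.67. Those of Il2ra had 4.13 ± 0.26, adjusted p = 1.0e-19, beside 4.5. In these genes both readouts gave the same direction. DNA replication introns were 25 higher and 0 lower of 26 (median log2 fold change 3.87) and mitosis introns 25 higher and 0 lower of 26 (median log2 fold change 4.04). Introns of the interferon list were 1 higher and 9 lower of 28 (median log2 fold change -1.16), of the chaperones 7 higher and 7 lower of 23 (median log2 fold change -0.07), of cholesterol synthesis 8 higher and 4 lower of 26 (median log2 fold change -0.03) and of the respiratory chain 5 higher and 3 lower of 30 (median log2 fold change -0.03). The medians of the full counts for these 4 lists were -2.77, 1.45, 1.07 and 1.02. Introns of ribosomal protein genes were 28 higher and 1 lower of 40 (median log2 fold change 0.83), beside a median of -0.16 for their full counts. For Ldha the introns had a log2 fold change of -0.01 and the full counts 2.46. Whether introns of these libraries report transcription, unspliced RNA or other RNA was not tested. Introns of 1 gene can also hold another gene.

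The step in anti-CD3 dose at 24 h gave no calls in the planned fits, and few, most of them small, in a blocked fit of its 8 libraries alone. The comparison of WT cells after 24 h of the weak stimulus with those after the very weak one asked how far the lowest dose already carries. In the fit of all libraries edgeR called 0 of 13709 genes (0%), with 280 at an unadjusted p under 0.05, and DESeq2 also called 0 (290 unadjusted). Libraries of the same number deviated together between the 2 doses, with correlations of 0.319, 0.290, 0.398 and 0.268 for numbers 1 to 4. With the number as a block in all 58 libraries, edgeR again called 0 genes (468 unadjusted). The 8 libraries fitted alone without a block also gave 0 (451 unadjusted). A fit of these 8 libraries alone with the block, which was not planned in advance, called 414 of 11652 genes (3.55%). Of these, 166 were higher and 248 lower at the weak dose, and 2129 genes had an unadjusted p under 0.05. The median size of the called differences was 0.31 on the log2 scale, and 21 reached 2-fold. Il2 had the largest difference to be named, at 32.7 ± 16.1 CPM after the weak stimulus and 10.8 ± 4.43 CPM after the very weak one (paired log2 difference 1.55 ± 0.13, adjusted p = 1.0e-06). Bcl2l1 (0.47), Cd44 (0.39) and Cdkn1a (0.47) were higher, and Dgka (-0.45) and Bcl2 (-0.33) lower, at the weak dose in the same fit. Klf2 was at 16.7 ± 4.66 CPM after the weak stimulus and 20.2 ± 4.68 CPM after the very weak one, and Il2ra at 593 ± 105 CPM after the weak stimulus and 626 ± 70.03 CPM after the very weak one. Of 304 named genes in this fit, 47 were called, 24 higher and 23 lower at the weak dose.

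By 48 h of the very weak stimulus, glycolysis, mitosis, interferon and cytokine genes were mostly higher than at 24 h, and replication and ribosome biogenesis genes mostly lower. Between 48 h and 24 h, 4715 of 13709 genes were called (34.4%), 2527 higher and 2188 lower at 48 h, with 1098 and 228 of these at least 2-fold. Glycolysis genes were higher at 48 h in 22 of 24 and lower in none. Hk2 was at 131 ± 37.8 CPM at 24 h and 242 ± 58.6 CPM at 48 h (log2 difference 0.88 ± 0.24, adjusted p = 0.0036), and Slc2a3, which had not been called at 24 h, at 45.7 ± 7.05 CPM at 24 h and 545 ± 286 CPM at 48 h (3.58 ± 0.4, adjusted p = 2.4e-09). Mitosis genes were higher at 48 h in 24 of 26, with Ccnb1 at 36.9 ± 7.4 CPM at 24 h and 105 ± 9.65 CPM at 48 h (1.51 ± 0.18, adjusted p = 4.5e-09). DNA replication genes were lower in 15 of 26 and higher in 1, and Mcm5 was at 875 ± 51.2 CPM at 24 h and 604 ± 46.5 CPM at 48 h (-0.54 ± 0.09, adjusted p = 1.8e-05). Ribosome biogenesis genes were lower in 25 of 30, with Ncl at 5011 ± 622 CPM at 24 h and 3397 ± 537 CPM at 48 h (-0.56 ± 0.14, adjusted p = 0.0014). Interferon genes were higher at 48 h in 24 of 28, and Isg15 was at 4.14 ± 0.996 CPM at 24 h and 123 ± 98.3 CPM at 48 h (4.89 ± 0.88, adjusted p = 2.4e-05). Its naive mean was 27.8 ± 7.87 CPM (SD, n = 3). Il2 was at 10.8 ± 4.43 CPM at 24 h and 56.8 ± 46.4 CPM at 48 h (2.39 ± 0.56, adjusted p = 7.7e-04), and 14 of 25 cytokine genes were higher at 48 h. Cholesterol genes were higher in 21 of 27, hypoxia genes in 14 of 18 and class I genes in 11 of 14. The smallest adjusted p-values of this comparison belonged to Stc2 (4.05 ± 0.26, adjusted p = 1.7e-16), Atp1b1 (-1.4 ± 0.1, adjusted p = 4.4e-14), Dlgap5 (1.09 ± 0.08, adjusted p = 5.1e-14), Cenpa (2.12 ± 0.16, adjusted p = 8.7e-14), Idh1 (1.96 ± 0.15, adjusted p = 1.1e-13) and H1f0 (2.36 ± 0.19, adjusted p = 1.7e-13).

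**Figure D5:**
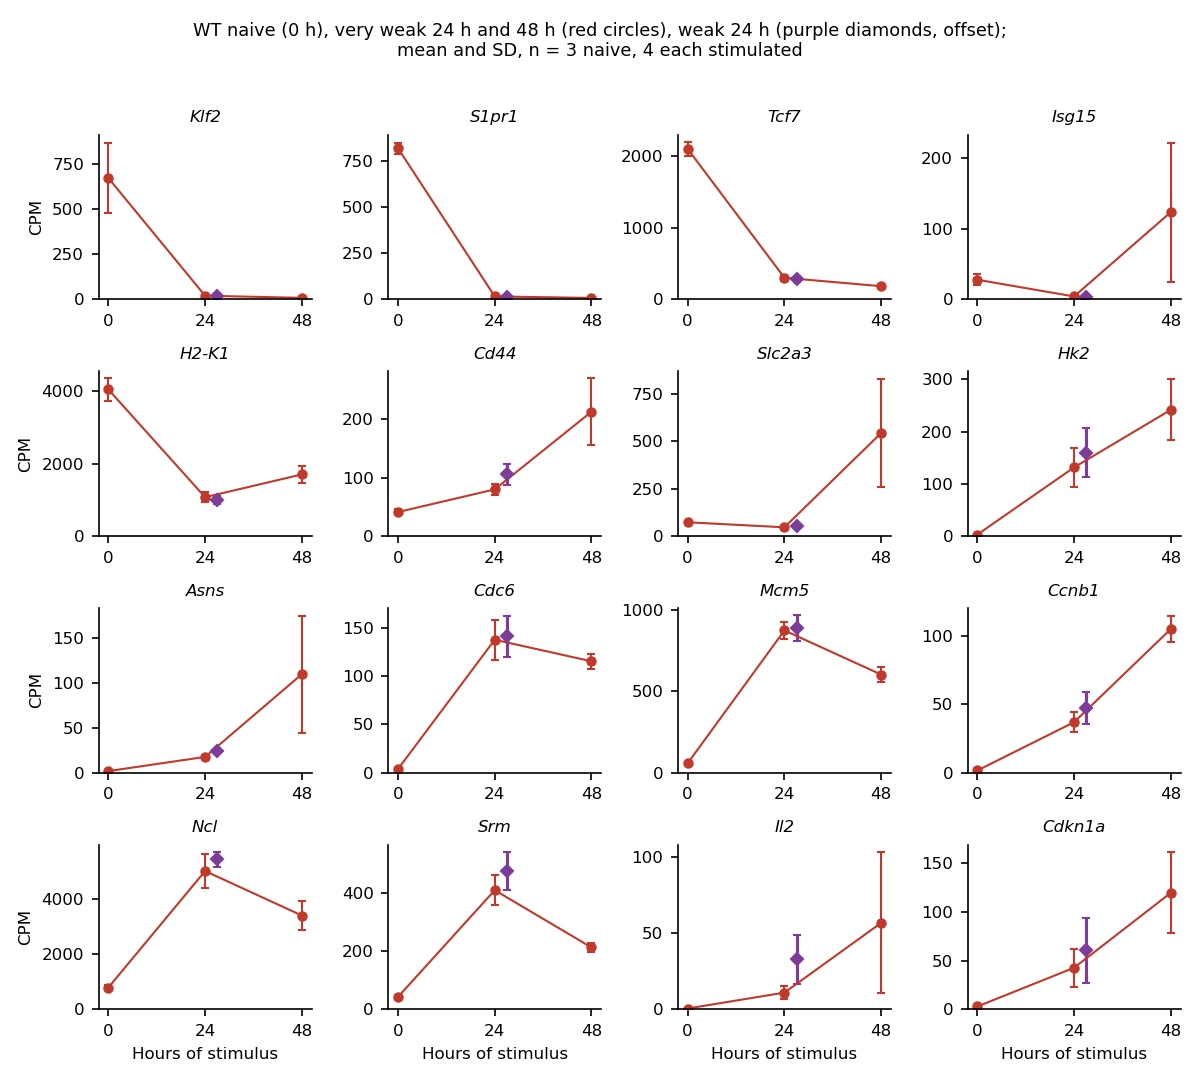
Mean CPM and SD of 16 genes against hours of stimulus (linear axes from 0), in WT naive cells at 0 h, after 24 h and 48 h of the very weak stimulus (circles) and after 24 h of the weak one (diamonds, offset), with n = 3 naive and 4 libraries in each other group. Slc2a3 and Isg15 are higher at 48 h than at 24 h, and Mcm5 and Ncl lower.

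The same switch took place in KO and TG cells, which share no library with WT cells. The genotypes are still not fully independent, since all were tested in 1 fit and same-numbered libraries tended to deviate together. Correlations were 0.255 to 0.438 between KO and WT stimulated libraries and 0.0818 to 0.391 between KO and WT naive libraries. For number 2 the naive correlation was 0.130, below the highest with another number, 0.187. KO cells after the very weak stimulus had 10180 genes called against KO naive cells (74.3%), and TG cells 10641 (77.6%). Of the genes that rose in WT cells 90.7% also rose in KO cells, which is 93.6% of the rises called in KO cells, and of those that fell 90.8% also fell (92.9% of the KO falls). The shares were 91.0% and 91.3% of the WT calls for TG cells, which are 89.7% and 89.5% of the TG calls. Pearson's r of the log2 fold changes was 0.951 for KO and 0.944 for TG cells against WT cells, across 13709 genes, which are not independent replicates. Genes that rose in WT cells and fell in the other genotype numbered 2 for KO and 7 for TG cells, and genes that fell in WT cells and rose in the other numbered 0 and 9. Mir17hg counts did not check the deletion, since the deposited counts do not separate the deleted part of the transcript from the rest. Its mean was 47.7 ± 9.03 CPM in KO naive cells and 30.1 ± 5.67 CPM in WT naive cells.

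The difference between the stimulation effects was tested gene by gene. For KO minus WT, edgeR called 0 of 13709 genes (0%), with 851 at an unadjusted p under 0.05, and DESeq2 called 7 (893 unadjusted). The smallest adjusted p was 0.0505, shared by Chek2, Fhl2, Myo1c, Hmga1, Fbxo25 and E2f2. For TG minus WT, edgeR called 146 genes (1.06%), 61 with a higher and 85 with a lower log2 fold change in TG cells. Cd44 rose by 2.35 in TG cells and 0.96 in WT cells (difference 1.39 ± 0.36, adjusted p = 0.036). It was at 229.9 ± 37.6 CPM in TG stimulated cells and 79.8 ± 9.56 CPM in WT stimulated cells. Pdcd1 rose by 2.61 in TG cells and 4.22 in WT cells (difference -1.61 ± 0.32, adjusted p = 0.0032), with 19.1 ± 8.1 CPM in TG naive cells and 7.83 ± 1.73 CPM in WT naive cells. Nrn1, a membrane-anchored neuronal growth factor, rose by 2.69 in TG cells and 5.43 in WT cells (difference -2.74 ± 0.39, adjusted p = 3.6e-05), with 6.54 ± 1.49 CPM in TG naive cells and 1.97 ± 0.572 CPM in WT naive cells. For both genes the naive mean was higher in TG cells, and Cd44 differed mainly after stimulation. Chaf1a, a histone chaperone of replicating DNA (-0.93 ± 0.13, adjusted p = 2.5e-05), Ncaph, a condensin subunit (-0.95 ± 0.14, adjusted p = 6.3e-05), Stil, needed for centriole duplication (-1.5 ± 0.24, adjusted p = 2.7e-04), and Phf19, a Polycomb cofactor (-0.94 ± 0.15, adjusted p = 3.7e-04), had smaller rises in TG cells. Their naive means were higher there, as for Chaf1a with 7.52 ± 0.286 CPM in TG naive cells and 4.12 ± 0.698 CPM in WT naive cells. Il4ra (0.88 ± 0.2, adjusted p = 0.014) and Klhl5 (0.83 ± 0.13, adjusted p = 3.1e-04) differed the other way. Libraries of the same number deviated together between TG and WT stimulated cells, with correlations of 0.196 to 0.360, and a fit with the number as a block called 357 genes in place of 146. Without WT naive library 4 the count was 56, without stimulated WT library 3 it was 97, and without TG naive library 4 or stimulated TG library 1 it was 94 or 78.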

How the data were processed

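The authors deposited whole-number read counts per gene in 2 tables, full and intron, neither of them normalized as far as headers and values show. Many genes have more intron than full counts, so intronic reads are not part of the full table. Single-end reads came from stranded TruSeq libraries of poly(A) RNA, per the labels' protocols. Build mm10, STAR 2.5.2a, edgeR 3.24.3, FastQC 0.11.5 and R 3.5 are listed, with no role, per the submitters' processing notes. No source used here names the program or annotation that assigned reads to genes, or whether strand was used (not given in the sources used here). Overlapping and antisense genes are therefore uncertain. Of 24028 gene IDs, 23968 had a RefSeq symbol, 7 a GENCODE symbol and 53 none.

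Here edgeR 4.0.16 (R 4.3.3) applied the quasi-likelihood F test to the counts, scaled by TMM factors of 0.939 to 1.06, after filterByExpr had kept 13709 full and 12366 intron genes, with 1 coefficient per group of 58 libraries and 43 residual degrees of freedom. Adjusted p-values are Benjamini-Hochberg over all genes tested, with a threshold of 0.05; DESeq2 1.42.0 was an alternative. The steps were tested on simulated data. No 2 libraries were duplicates. Totals were 19.2 to 20.8 M counts. Without molecular identifiers, counting intervals and the floor of 3 counts per group cover counting error only. Replicate numbers were checked between the stimulated and naive groups: same-numbered libraries correlated by 0.146, 0.0809 and 0.147 in their deviations from the group means, and were not treated as pairs.

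The libraries and the gene lists were chosen with earlier results of these data known. Genes given values were the 10 largest rises and falls among called genes of at least 5 CPM, 5 genes each way at 0 counts in a group, 6 of smallest p per secondary comparison, and preselected members of 48 programme lists; 12 marker lists were described by sums. A few list members are not reported here. Promoters are RefSeq sequences of GRCm38.p6, of each gene's first listed start.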

Additional observations from a re-analysis of the deposited data

Results flagged for a closer look

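In 302 named genes the 4 stimulated WT libraries were searched for 1 library far from the other 3 by Dixon's ratio, which chance exceeds in about 1 of 20 groups; 22 genes had one. Stimulated library 1 stood apart, at the high end, for Bcat1 (289 CPM), Nolc1 (909.9 CPM), Gars (481 CPM), Hmgcs1 (231 CPM), Idi1 (73.5 CPM), Ran (657 CPM) and Hspa1l (0.106 CPM), and at the low end for Cenpa (30.04 CPM) and Socs2 (16.8 CPM). Library 3 stood apart at the high end for Etv4 (12.48 CPM), Mxi1 (17.2 CPM), Nt5e (48.3 CPM) and Mrc1 (0.0503 CPM, 1 count), and at the low end for Mdn1 (344 CPM), Mfap1b (44.4 CPM), Nfkb2 (207 CPM) and Rrm2 (263 CPM). Library 4 was high for Cdkn1a (71.7 CPM), Tbx21 (102 CPM) and Cxcr5 (6.52 CPM). Library 2 was high for Nfil3 (16.1 CPM) and Bnip3 (23.2 CPM).

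For 13 named genes the stimulation effect differed between TG and WT cells by edgeR's test of the difference, given as the TG minus the WT log2 fold change. It was lower in TG cells for Nrn1 (-2.74), Pdcd1 (-1.61), Stil (-1.5), Ncaph (-0.95), Phf19 (-0.94), Chaf1a (-0.93), E2f2 (-0.73), Mcm5 (-0.65) and Itgal (-0.55). It was higher in TG cells for Cd44 (1.39), Il4ra (0.88), Klhl5 (0.83) and Dnmt3b (0.69).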

How the results depend on the processing

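For 314 named genes, 17 alternatives (scaling, filters, DESeq2, replicate block, libraries left out) gave 5324 results: 5203 kept direction and call, 46 lost the call, 75 gained it and 0 reversed. The 9 genes that lost a call under any of them were Bbc3, Egr2, Gimap5, Hpgd, Hspa5, Nt5e, Pmaip1, Rbl1 and Spry2. Calls between stimulated and naive cells numbered 10458; they ran from 10092 to 10252 with a library left out, from 10450 to 10472 under other scalings and from 8372 to 10783 under other filters, with 10396 in DESeq2. A replicate block gave 10721 in all libraries, and 10240 with the block against 10018 without it in replicates 1, 2 and 4 alone; each of these libraries correlated best with its own number, a hint from the data and not from the design. Of 184 recounts, 169 stayed within 1.5 times and 15 did not. The difference between KO and WT effects had 0 calls, but 7 with the replicate block, 7 with DESeq2 and 0 to 10 with a library left out (most without KO naive library 2). The difference between TG and WT effects had 146, but 357 with the replicate block, 264 with DESeq2 and 56 to 204 with a library left out. The dose comparison had 0, and 0 with the replicate block in all 58 libraries, but 414 with the block in its 8 libraries alone, a fit not planned in advance. The cause of these shifts was not tested. The 48 h comparison had 3694 to 4809 calls with a library left out. Depth limits genes under 5 CPM most, and 4517 genes had 0 counts in every library.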

Other observations

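The counts of 3 gene lists were also taken in KO and TG cells, each set against its own naive libraries. Over all 13709 genes tested, 4788 rose and 5392 fell in KO cells. In TG cells 5015 rose and 5626 fell, and in WT cells 4943 rose and 5515 fell. Of 40 cytosolic ribosomal protein genes, 27 fell and 1 rose in KO cells, 19 fell and 2 rose in TG cells, and 13 fell and 4 rose in WT cells. Of 25 cytokine genes, 4 rose and 7 fell in KO cells, 12 rose and 3 fell in TG cells, and 6 rose and 5 fell in WT cells. Of 15 guanylate-binding and immunity-related GTPases, 6 rose and 4 fell in KO cells, 12 rose and 2 fell in TG cells, and 11 rose and 2 fell in WT cells. No member of these 3 lists was called in the edgeR test of the TG minus WT difference, and no gene was called for KO minus WT.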
